A study of Mus musculus with 8 samples.

Results

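H19, Meg3, Rian, Mirg, Dlk1, Mest, Peg3, Plagl1, Grb10 and Ndn are imprinted genes with roles in growth, and their expression was followed in SV-LECs with and without TGFβ1. The 10 genes were chosen by symbol from the 55471 genes of the count table, and each symbol had 1 row. They lie at 7 loci of the mouse genome. SV-LEC is an SV40-immortalized mouse line that the labels describe as lymphatic endothelial, derived from adventitial tissue of the mesentery. The untreated group and the TGFβ1 group (10 ng/ml for 72 h) had 4 libraries each, and all of them came from this line, grown in the same medium according to the labels. The study describes the samples as technical replicates, so errors and p-values cover the spread between these libraries and not between independent cultures.

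Imprinted genes are expressed mainly from the allele inherited from one parent, and the choice is set by DNA methylation at imprinting control regions. Many of them act on fetal growth. Paternally expressed genes such as Dlk1, Mest, Peg3, Plagl1 and Ndn lie in the same network as the maternally expressed H19, Meg3, Rian and Mirg and as Grb10, which is maternally expressed in most tissues. Plagl1 is a zinc finger factor known to regulate other imprinted genes of the network, and H19 RNA is known to restrain several of these. The counts carry no information on the allele, and in bulk RNA fewer cells expressing a gene cannot be told apart from less RNA per cell.

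Total counts were 19182616 to 26077972 in the untreated and 18952504 to 26386941 in the TGFβ1 libraries, and 3 counts corresponded to 0.113 to 0.162 CPM (counts scaled to the normalized library size). All 7 tested genes of the 8 TGFβ response genes checked, such as Ccn2 and Acta2, were higher with TGFβ1. Of 12 lymphatic and pan-endothelial markers, 7 had at most 3 counts in every library. Counts over the untreated and the TGFβ1 libraries were 0 and 6 for Prox1 and 6 and 0 for Lyve1, the defining lymphatic genes. They were 1 and 4 for Cdh5 and 6 and 14 for Pecam1, while Pdpn, Flt4 and Kdr were measured well above the filter. The labelled identity was thus borne by only part of its markers, and the summed level of the list was 357 to 394 CPM untreated and 360.0 to 370.0 CPM with TGFβ1, most of it Pdpn. Of its 4 tested genes, Kdr (11.6 to 22.1 CPM, log2 fold change 0.93) and Flt4 (0.44) rose, Pdpn fell (342 to 313 CPM, log2 fold change -0.13) and Tek was not called. The 10 fibroblast and mural markers summed to 5894 to 7915 CPM untreated and 7236 to 8466 CPM with TGFβ1. Of the 8 tested, 5 were higher and 3 lower. Col1a1, also among the TGFβ response genes checked, made up 2677 to 4045 CPM untreated and 5325 to 6463 CPM with TGFβ1. Below the filter, Lum had 30 counts over the untreated libraries and 1 over the TGFβ1 libraries. Rgs5, also below it, went the other way with 0 and 18 counts. The 7 epithelial markers summed to 34.2 to 40.7 and 38.2 to 45.3 CPM, nearly all of it Krt14 (37.1 and 38.8 CPM, not called). Of the 3 epithelial markers tested, Krt8 (0.273 to 1.11 CPM, log2 fold change 1.99) and Krt18 (0.226 to 1.24 CPM, log2 fold change 2.47) were higher with TGFβ1, and Epcam had 5 and 14 counts in all. The 6 blood cell markers in the table summed to 6.02 to 7.86 and 15.3 to 17.5 CPM, of which the macrophage gene Cd68 made up most, while Ptprc had 0 and 1 counts in all. All 10 proliferation markers fell, with a median log2 fold change of -1.80 and a summed level of 1999 to 2093 CPM untreated against 567 to 612 CPM with TGFβ1. The part of any of these markers in the changes below was not tested.

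Of the 10 imprinted genes, 7 were expressed above the filter on low counts and were tested, and all 7 differed between the groups. Dlk1, Mest, H19, Grb10 and Peg3 fell, and Plagl1 and Ndn rose. Meg3, Rian and Mirg were near or below the detection floor and were not tested. The test was the edgeR likelihood ratio test with Benjamini-Hochberg FDR over all 13818 genes tested and a threshold of 0.05. It called 75.6% of all genes tested, 37.6% as higher and 38% as lower, against which the calls below are to be read. The median log2 fold change was -1.15 over the 7 genes and -0.01 over all genes. Peg3 reached the minimum of the filter in 4 of 4 untreated and 3 of 4 TGFβ1 libraries, where 4 libraries of either group were needed. Of all genes, 6.56% were called with a log2 fold change of -1 or lower and 1.51% with -2 or lower. Dlk1, Mest, H19 and Grb10 lay at -1 or lower and Dlk1 and Mest at -2 or lower. Peg3, at -1.02, was above -1 with DESeq2 (-0.999), with the replicate block (-0.99) and with untreated library 1 or 2 or TGFβ1 library 3 or 4 left out (up to -0.78).

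**Figure D1:**
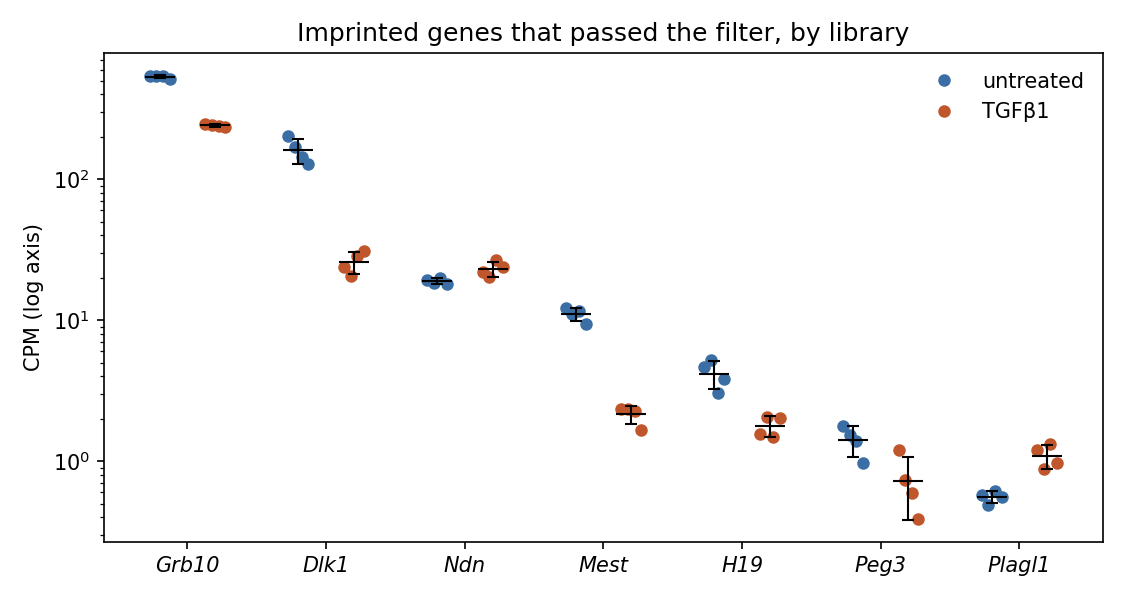
CPM on a log axis of the 7 imprinted genes that passed the filter. Points are libraries (4 untreated in blue, 4 TGFβ1 in orange), horizontal lines the means and bars the SD, and only for Peg3 do the points of the groups overlap.

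Dlk1 had the strongest fall of the network. It encodes a transmembrane protein of the delta-like family with EGF repeats, which holds progenitor cells such as preadipocytes in an undifferentiated state, and it lies on chr12:109452823-109463336 (GRCm38, plus strand, ENSMUSG00000040856). Its level was 201, 169.5, 143 and 129 CPM in the 4 untreated libraries and 24.0, 20.5, 28.3 and 30.8 CPM in the 4 TGFβ1 libraries. Every untreated library lay at least 4.17 times above every TGFβ1 library, although the untreated values themselves spread more widely than those of Grb10 or Ndn. The mean went from 160.4 ± 31.9 to 25.9 ± 4.56 CPM (SD, n = 4 each), a 6.18-fold lower level that left 16.2% of the untreated one (log2 fold change -2.63, SE 0.134, edgeR FDR 2.85e-76).

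Mest encodes a membrane protein of the alpha/beta hydrolase fold, and its RNA is abundant in embryonic mesoderm and growing adipose tissue. The gene lies on chr6:30723547-30748465 (plus strand, ENSMUSG00000051855). The untreated libraries held 12.1, 11.1, 11.6 and 9.43 CPM and the TGFβ1 libraries 2.33, 2.34, 2.26 and 1.67 CPM. The groups were well apart, with means of 11.1 ± 1.17 and 2.15 ± 0.321 CPM (SD, n = 4 each) and a 5.20-fold lower level with TGFβ1 (log2 fold change -2.38, SE 0.145, edgeR FDR 4.36e-67). In the annotation the end of Copg2, a coat protein gene read from the other strand, covers 912 bases or 23.1% of the exonic sequence of Mest. It is not known here whether strand was used in counting, and Copg2 itself fell from 97.3 to 55.8 CPM (log2 fold change -0.80, SE 0.0542). Reads of Copg2 and of Mest in this stretch therefore could not be told apart with certainty.

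Grb10, an adaptor protein that binds the insulin and IGF1 receptors and dampens their signal, fell by 1.15 on the log2 scale from what was also per length the highest level of the network. It lies on chr11:11930508-12038683 (minus strand, ENSMUSG00000020176). The untreated libraries held 538, 542, 539 and 513 CPM and the TGFβ1 libraries 247, 243, 240.1 and 233 CPM. The libraries of each group were close to each other and the groups far apart, with means of 533 ± 13.5 and 240.7 ± 5.84 CPM (SD, n = 4 each). The 2.22-fold lower level had the largest likelihood ratio statistic of the 7 genes (843, log2 fold change -1.15, SE 0.0392, edgeR FDR 1.34e-183).

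The promoter sequences of these 3 genes are shown because these genes had the smallest FDRs of the network, and CpG dinucleotides are in capitals. DNA methylation falls on CpG, but whether these windows belong to an imprinting control region was not checked. Each is the stretch of 250 bases before a RefSeq transcription start, read 5′ to 3′ on the strand of the gene, from the table for GRCm38.p6. Dlk1 is chr12:109452573-109452822, Grb10 chr11:12037421-12037670 and Mest chr6:30737800-30738049, and none of them overlaps an annotated exon of its own gene. Exons of other genes were not checked. Where RefSeq gives several starts, as for Grb10 and Mest, a window with the most CpG was taken.
Dlk1: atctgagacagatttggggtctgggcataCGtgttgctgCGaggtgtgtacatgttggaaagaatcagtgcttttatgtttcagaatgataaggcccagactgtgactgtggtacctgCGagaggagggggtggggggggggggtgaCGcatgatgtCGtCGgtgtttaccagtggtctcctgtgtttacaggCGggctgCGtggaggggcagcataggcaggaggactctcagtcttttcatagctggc
Grb10: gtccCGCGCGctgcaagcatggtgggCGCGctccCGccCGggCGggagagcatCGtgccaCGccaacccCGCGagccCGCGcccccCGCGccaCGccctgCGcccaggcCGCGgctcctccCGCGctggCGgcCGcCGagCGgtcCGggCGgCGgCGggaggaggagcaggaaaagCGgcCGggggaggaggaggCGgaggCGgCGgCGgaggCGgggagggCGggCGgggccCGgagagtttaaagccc
Mest: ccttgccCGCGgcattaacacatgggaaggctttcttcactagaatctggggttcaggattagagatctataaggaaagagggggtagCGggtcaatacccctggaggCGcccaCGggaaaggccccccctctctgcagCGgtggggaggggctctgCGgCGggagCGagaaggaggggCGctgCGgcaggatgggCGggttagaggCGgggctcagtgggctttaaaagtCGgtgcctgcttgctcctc

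The 3 stretches differed in CpG content, with 40 CpG in Grb10, 14 in Mest and 8 in Dlk1 against a median of 6 over 32851 promoters of the same length. The Grb10 stretch was above 98.7% of them and had a GC content of 81.2%. For Grb10 and Mest the window shown was chosen for its high CpG count. The other Grb10 window held 8 CpG at a GC content of 54%, and another Mest window held 7 CpG. Promoters were found for 9 of the 10 genes, in 13 windows, and were searched on both strands for short motifs. Some windows not printed above overlapped annotated exons of their own gene. The largest overlaps were in Ndn (all 250 bases), a Meg3 window (172), Mirg (158) and Plagl1 (141). The SMAD-binding letters CAGAC were present in windows of Dlk1, Meg3, Peg3 and Rian, 5 of 13 windows, and in 42.2% of all promoters. The GC box GGGCGG was present in Grb10, Mest and Plagl1, also 5 of 13 windows, and in 32.7% of all promoters. Of these 5 windows 3 belong to Mest, and 2 of those start 3 bases apart and hold almost the same sequence. GGGGCCCC, searched as a PLAGL1 core, was present in the Peg3 window and in 0.889% of all promoters. The palindrome GTCTAGAC was in none of the 13 windows and in 0.167% of all promoters. TATAAA was found for Meg3 and in 12.4% of promoters, and the E-box CACGTG for Plagl1 and in 6.02%. No motif searched contains another. These matches describe the letters in these windows and not binding.

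H19 is a spliced, noncoding RNA that is abundant in fetal tissue, shares enhancers and an imprinting control region with the growth factor gene Igf2, and is the precursor of a miRNA. It lies on chr7:142575529-142578143 (minus strand, ENSMUSG00000000031). Its level was 4.67, 5.18, 3.06 and 3.80 CPM in the untreated libraries and 1.57, 2.04, 1.48 and 2.02 CPM in the TGFβ1 libraries. The groups did not overlap, and the means of 4.18 ± 0.940 and 1.78 ± 0.297 CPM (SD, n = 4 each) differed 2.34-fold (log2 fold change -1.23, SE 0.195, edgeR FDR 4.48e-10). These values rest on 70 to 138 counts in untreated and 29 to 52 counts in TGFβ1 libraries. Igf2, the paternally expressed partner of H19, had 9, 6, 2 and 6 counts in the untreated and 1, 1, 1 and 5 counts in the TGFβ1 libraries. It was below the filter, and without the filter 23 against 8 counts in all gave a log2 fold change of -1.44 (edgeR FDR 0.0388). Mrpl23, the next protein-coding gene on the other side of H19, fell by 0.41 on the log2 scale.

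Peg3 encodes a large zinc finger protein that is paternally expressed and is known for its part in growth and maternal behaviour. It lies on chr7:6703892-6730431 (minus strand, ENSMUSG00000002265). The untreated libraries held 1.78, 1.54, 1.40 and 0.964 CPM and the TGFβ1 libraries 1.19, 0.730, 0.590 and 0.388 CPM. The highest TGFβ1 library lay above the lowest untreated one, so the groups overlapped, at 19 to 41 and 10 to 22 counts per library. Peg3 was called lower all the same, with means of 1.42 ± 0.344 and 0.725 ± 0.341 CPM (SD, n = 4 each), a log2 fold change of -1.02 (SE 0.284) and an edgeR FDR of 0.000457. Usp29, which starts 0.147 kb from Peg3, and Zim1 had at most 7 counts over a group.

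Plagl1 rose, from a mean level that was also per length the lowest of the tested genes. The gene encodes a zinc finger transcription factor known to arrest the cell cycle and to bind at other imprinted genes, and it lies on chr10:13060504-13131694 (plus strand, ENSMUSG00000019817). Its level was 0.578, 0.488, 0.611 and 0.558 CPM in the untreated libraries and 1.19, 0.876, 1.33 and 0.970 CPM in the TGFβ1 libraries. Every TGFβ1 library was above every untreated one, at 18 to 27 against 11 to 14 counts. The means were 0.559 ± 0.0520 and 1.09 ± 0.206 CPM (SD, n = 4 each), with a log2 fold change of 0.95 (SE 0.261, edgeR FDR 0.000291). Where 4 libraries had to reach 1 CPM, Plagl1 was left out and had no test.

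Ndn, which encodes necdin, a MAGE family protein that restrains proliferation and is expressed in postmitotic neurons, rose by the smallest step of the 7 genes. It lies on chr7:62346569-62350262 (plus strand, ENSMUSG00000033585). The untreated libraries held 19.1, 18.5, 20.0 and 18.0 CPM and the TGFβ1 libraries 21.8, 20.4, 26.8 and 23.8 CPM. The groups did not overlap, but the lowest TGFβ1 library was only 1.02 times the highest untreated one. The means were 18.9 ± 0.865 and 23.2 ± 2.80 CPM (SD, n = 4 each), with a log2 fold change of 0.30 (SE 0.0842, edgeR FDR 0.00071). Of the 7 genes, 6 had no overlap between the groups, 2 of them higher and 4 lower, against 69.8% of all genes tested, 34.7% higher and 35.1% lower.

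The Dlk1-Dio3 locus on chromosome 12 holds 4 of the 10 genes, and they were at very unequal levels. Dlk1 and the deiodinase gene Dio3, which inactivates thyroid hormone, are expressed from the paternal allele, and between them lie the maternally expressed noncoding RNAs Meg3, Rian and Mirg, whose transcripts hold snoRNAs and miRNAs. Dlk1 had 4172, 4513, 3266 and 2535 counts in the untreated libraries and 444, 422, 576 and 794 counts in the TGFβ1 libraries. Meg3 (chr12:109541001-109571726) had 6, 4, 3 and 4 counts in the untreated and 1, 4, 2 and 4 counts in the TGFβ1 libraries. Rian (chr12:109603940-109661716) had 7, 5, 7 and 5 counts and 5, 1, 3 and 6 counts in the same order. Mirg (chr12:109729764-109749460) had no count in any untreated library and 2 counts in 1 TGFβ1 library. The noncoding RNAs of the locus were thus at or near the floor in both groups, and their ranges overlapped.

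No difference in Meg3, Rian or Mirg was found, and at these counts a modest change could be missed. Their totals were 17 against 11, 24 against 15 and 0 against 2 counts, and without the filter the edgeR FDRs were 0.386 for Meg3, 0.297 for Rian and 0.173 for Mirg. Rtl1, a gene of retroviral origin between Meg3 and Rian, had 1 count in 1 TGFβ1 library and none elsewhere. Dio3 was detected at 17 to 27 counts untreated and 20 to 30 counts with TGFβ1 and did not pass the test (log2 fold change 0.11, SE 0.217, edgeR FDR 0.648). The ratios of Rian, Mirg and Dlk1 to Meg3 could not be tested, as Meg3 did not exceed 3 counts in every library. With 0.5 counts added to each, the log2 ratio changed by -0.14 for Rian to Meg3 and by 1.23 for Mirg to Meg3, with SDs of 1.05 and 0.750 within groups. Dlk1 to Meg3 changed by -2.06 with an SD of 0.580. With 1 library left out, Rian to Meg3 ran from -0.66 (without TGFβ1 library 1) to 0.49 (without TGFβ1 library 2), and its sign turned also without untreated library 3 (0.06). Mirg to Meg3 then ran from 0.85 to 1.63 and Dlk1 to Meg3 from -2.29 to -1.73.

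**Figure D2:**
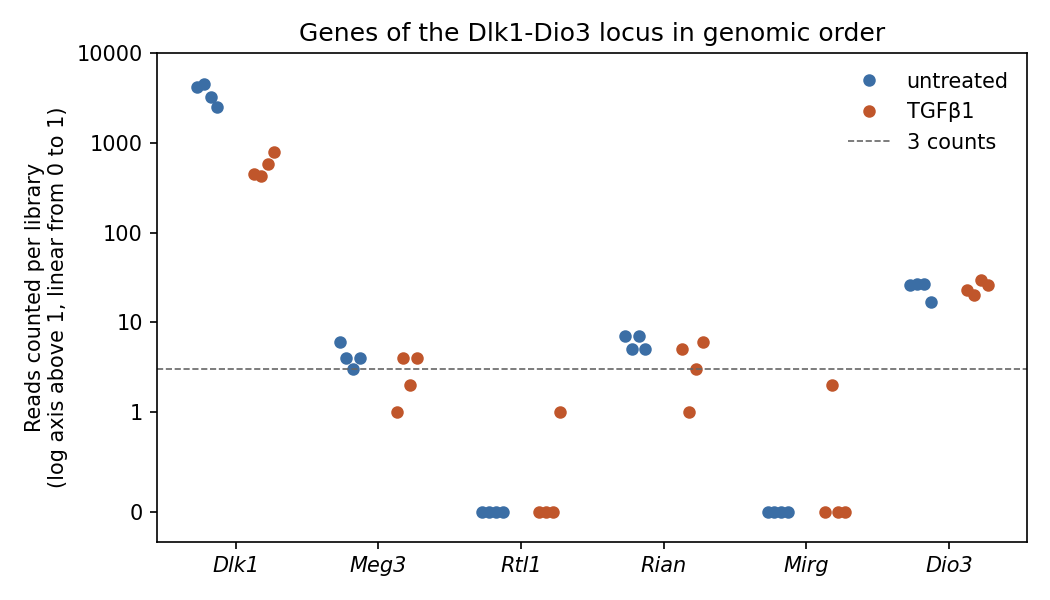
Reads counted per library for 6 genes of the Dlk1-Dio3 locus in genomic order, on an axis that is linear from 0 to 1 and logarithmic above. Points are libraries (4 untreated in blue, 4 TGFβ1 in orange), and the dashed line marks 3 counts. Dlk1 lies between 422 and 4513 counts, while Meg3, Rian, Rtl1 and Mirg have at most 7.

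Mest and H19, which both fell, each hold 1 miRNA gene. The mature sequences of their 5p arms from RefSeq (GRCm38.p6) are given with the seed, bases 2 to 8, in capitals, and the seeds differ.
mmu-miR-335-5p: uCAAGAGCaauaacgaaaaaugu
mmu-miR-675-5p: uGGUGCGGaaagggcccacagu

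The miRNA gene of mmu-miR-335-5p lies in an intron of Mest, and that of mmu-miR-675-5p in an exon of H19. In the annotation 2 miRNA genes lie inside Meg3, 4 inside Rian and 14 inside Mirg. All 50 miRNA genes of these loci that were looked up in the table had 0 counts in all 8 libraries. The libraries were made from poly(A) RNA for long transcripts, so these zeros say nothing about mature miRNAs.

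Per length, Grb10 was the most abundant of the 10 genes in both groups and the order below it changed. In the untreated group the level was 58.6 ± 1.49 CPM per exonic kb for Grb10, 28.4 ± 5.65 for Dlk1, 5.12 ± 0.234 for Ndn, 2.80 ± 0.296 for Mest and 1.70 ± 0.382 for H19 (SD, n = 4). These neighbours in the order did not overlap. Peg3 with 0.107 ± 0.0258 and Plagl1 with 0.0715 ± 0.00665 CPM per exonic kb overlapped, as did Rian with 0.0149 and Meg3 with 0.0107, and Mirg was at 0. With TGFβ1 the order was Grb10 with 26.5 ± 0.642, Ndn with 6.28 ± 0.759, Dlk1 with 4.58 ± 0.806, H19 with 0.722 ± 0.121, Mest with 0.545 ± 0.0815, Plagl1 with 0.140 ± 0.0263 and Peg3 with 0.0544 ± 0.0256 CPM per exonic kb. None of these neighbours overlapped with TGFβ1, whereas Rian (0.00959), Meg3 (0.00694) and Mirg (0.00334) overlapped in turn. Ndn thus stood above Dlk1, H19 above Mest and Plagl1 above Peg3 in TGFβ1 libraries, each the other way round from the untreated means.

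**Figure D3:**
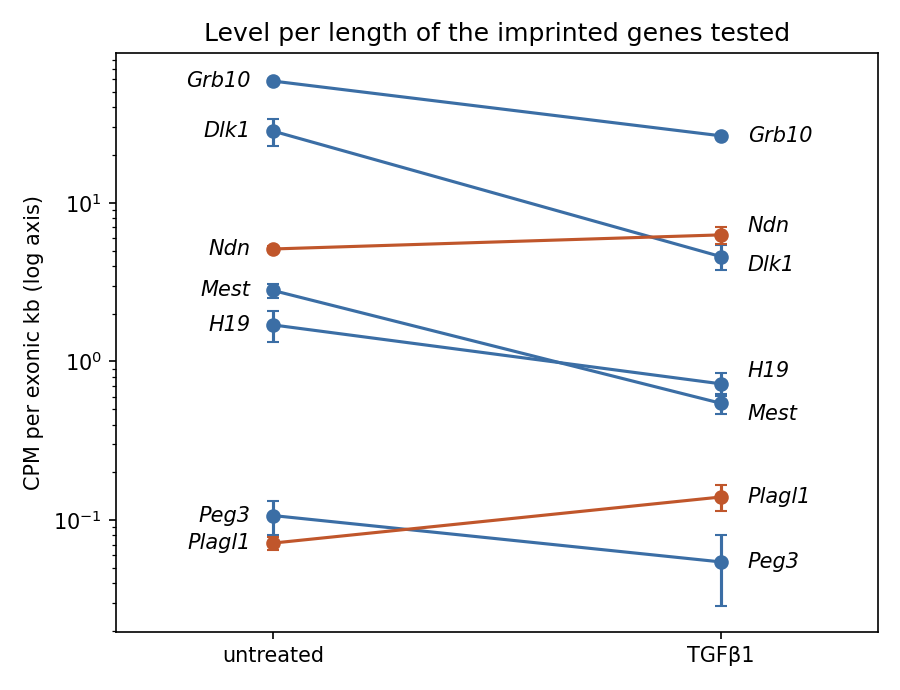
Mean level in CPM per exonic kb on a log axis for the 7 tested imprinted genes, untreated on the left and TGFβ1 on the right. Bars are the SD over 4 libraries, and lines join the same gene (blue for genes that fell, orange for genes that rose). The lines of Dlk1 and Ndn, Mest and H19, and Peg3 and Plagl1 cross.

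The other imprinted genes listed with the same 7 loci changed in both directions. Of 18 such genes, 8 were tested, 2 were higher, 3 lower and 3 not called, with a median log2 fold change of 0.02 against -0.01 over all genes. The list was set gene by gene and not by distance. Snrpn, Ube3a and Atp10a, listed with Ndn, lie more than 1000 kb from it. The largest fall was that of Ddc next to Grb10, which encodes the decarboxylase that makes dopamine and serotonin and is imprinted in heart. Ddc went from 2.93 to 4.26 CPM untreated to 0.536 to 0.787 CPM with TGFβ1 (log2 fold change -2.46, SE 0.238, edgeR FDR 1.19e-30). At Copg2 next to Mest the fall was the one given above, and Peg12 fell by 0.35 (SE 0.143, edgeR FDR 0.0186), a call that was lost in DESeq2 (FDR 0.0792) and without untreated library 4 (FDR 0.0634). At the Ndn locus as listed, Atp10a, a phospholipid flippase, rose by 0.40 (SE 0.0792, edgeR FDR 7.05e-07). Mkrn3, a ring finger gene there, was called higher with a log2 fold change of 0.77 (SE 0.350, edgeR FDR 0.0334) and did not pass the quasi-likelihood test (FDR 0.0754). The Mkrn3 call was also lost without untreated library 1, 3 or 4 or TGFβ1 library 2, 3 or 4, with FDRs of 0.0653 to 0.142. Snrpn (0.08) and the ubiquitin ligase gene Ube3a (-0.05) were not called. Of the remaining genes, 5 had no count in any library, Magel2 and Klf14 among them. Cpa4 near Mest was below the filter, with 2, 0, 2 and 0 counts untreated and 3, 5, 7 and 7 counts with TGFβ1, and without the filter it had a log2 fold change of 2.37 (edgeR FDR 0.000499).

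The nearest protein-coding genes on either side of each of the 10 genes came to 29, of which 15 were tested, 3 were higher, 8 lower and 4 not called. Their median log2 fold change was -0.23. Around Grb10 the genes Fignl1 (-0.92) and Cobl (-1.03) fell along with Ddc. Beside Dlk1, Begain fell by 0.78 and Wdr25 rose by 0.53. Cep41, beside Mest, fell by 0.58, and beside Plagl1 Stx11 was called higher at 0.20 (edgeR FDR 0.0396) and Ltv1 lower at -0.13 (edgeR FDR 0.0175).

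Imprinted genes listed at other loci changed in both directions. Of 36 in the table, 23 were tested, and 11 were higher, 9 lower and 3 not called, with a median log2 fold change of 0.00. Some of them, such as Ascl2, Cd81, Kcnq1ot1, Cdkn1c and Nap1l4, lie within 1000 kb of H19, so the lists are not separated by position. Without the filter on low counts 15 genes of this list were higher and 9 lower. The genes added were Slc22a18 (7 counts over the untreated and 64 over the TGFβ1 libraries, edgeR FDR 8.53e-09), Ascl2 (3 and 42, edgeR FDR 3.87e-09), Slc38a4 (11 and 36), Asb4 (0 and 8) and Kcnq1 (0 and 7), all higher, while Zrsr1 lost its call. Igf2r, the receptor that clears IGF2 and carries lysosomal enzymes, rose from 205 ± 2.82 to 367 ± 18.8 CPM (SD, n = 4 each, log2 fold change 0.84, SE 0.0443). Osbpl5 (1.16), Impact (1.08), the noncoding Kcnq1ot1 (1.06) and the signal peptide peptidase gene H13 (0.97) rose as well. Kcnq1ot1 had only 40 counts over the untreated and 78 over the TGFβ1 libraries (SE 0.326). Only its TGFβ1 group reached the minimum of the filter in all libraries. Cdkn1c, which encodes the CDK inhibitor p57, fell from 3.69 ± 0.441 to 1.90 ± 0.346 CPM (log2 fold change -0.93, SE 0.161). Sfmbt2 (-1.99), Ppp1r9a (-1.92), Nnat (-1.03) and the proteoglycan gene Dcn (-1.91), imprinted in placenta, fell too. Nnat had 87 counts over the untreated and 40 over the TGFβ1 libraries (SE 0.290), and only its untreated group reached the minimum of the filter in all libraries. Zrsr1 was called higher at 0.17 (edgeR FDR 0.0447), a call that was lost with total counts (FDR 0.222), with the replicate block (FDR 0.098), without the filter (FDR 0.161) and with any of 6 libraries left out (untreated 2, 3 or 4, TGFβ1 1, 2 or 4, FDR 0.053 to 0.162).

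**Figure D4:**
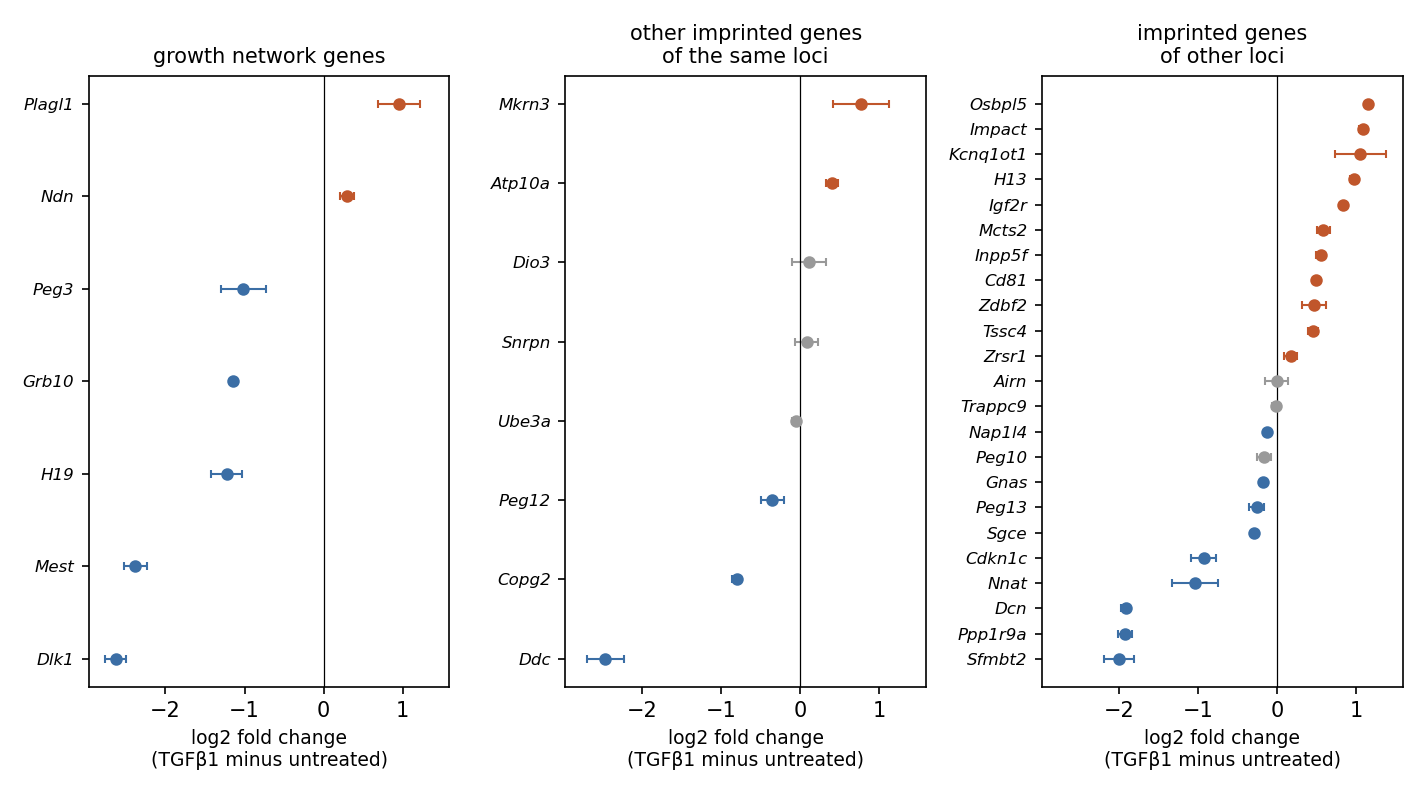
Log2 fold changes (TGFβ1 minus untreated) of the imprinted genes tested, with bars for the SE. From left to right are the 7 growth network genes, 8 other genes listed with the same loci and 23 genes listed at other loci. Orange points were called higher, blue points lower and grey points not called, and the left panel has 5 of 7 points below 0.

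Genes that set, keep or remove DNA methylation and related chromatin marks changed in both directions. DNMT1 and UHRF1 copy CpG methylation at replication, and ZFP57, ZFP445 and TRIM28 protect it at imprinting control regions, while the TET enzymes oxidize it. Of 18 genes of this mixed list, 15 were tested, 3 were higher, 10 lower and 2 not called, beside 37.6% higher and 38% lower over all genes, with a median log2 fold change of -0.25. The falls were largest for Dnmt3b (-1.17, from 4.23 to 1.87 CPM), Uhrf1 (-0.96, from 179 to 92.3 CPM) and Ctcf (-0.69, from 136 to 84.3 CPM), whose protein binds the control region of H19. Dnmt1 (-0.21), Trim28 (-0.32) and Smchd1 (-0.33) fell by less, while Zfp57 (0.25), Zfp445 (0.24) and Tet1 (0.50) rose. DNA methylation was not measured.

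Among genes of IGF and insulin signalling, the pathway that Grb10 dampens, 12 of 14 were tested, 7 were higher, 2 lower and 3 not called, with a median log2 fold change of 0.21. Igf1 (0.30), its receptor gene Igf1r (0.23) and the adaptor gene Irs1 (0.69) rose. Insr (-0.29) and the PI3K subunit gene Pik3r1 (-0.58) fell, and Irs2 (-0.03) and Akt1 (-0.06) were not called. Igf2bp3, which encodes an RNA-binding protein of Igf2 and H19 transcripts, rose by 0.70 (SE 0.209) with overlapping groups.

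Grb10, the gene with the largest test statistic of the 7, had Ywhae and Kif15 among the genes most like it in log2 CPM over the 8 libraries, with Pearson's r of 0.9996 and 0.9995. These libraries share the 2 groups, and both genes fell with TGFβ1, by 0.75 and 1.53 on the log2 scale.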

How the data were processed

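RNA of SV-LECs was sequenced with stranded poly(A) libraries and single-end reads of 75 bases. The authors aligned the reads to GRCm38/mm10 and deposited whole-number counts of reads per gene, with no normalization. The submitters' processing notes name bcl2fastq 2.20.0.422, STAR 2.7.3a and featureCounts 1.5.1, and the annotation release and strand setting are not given in the sources used here. Poly(A) selection leaves out mature miRNAs.

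Libraries were grouped by the treatment in their labels. The test used edgeR 4.0.16 in R 4.3.3: filterByExpr (10 counts, here 0.477 CPM, in at least 4 libraries), TMM, glmFit and glmLRT without covariates on all 8 libraries, and Benjamini-Hochberg FDR over 13818 genes. CPM used the TMM library size. The pipeline was tested on simulated data. Within groups, the chi-square per degree of freedom between libraries was 2.37 to 7.84 over genes with at least 20 counts, and all libraries were kept. Positions, exonic length and neighbours came from GENCODE M21, which matched 55144 genes, and promoter and miRNA sequences from RefSeq.

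Every one of the 10 genes was named. Other named genes came from gene lists, from the 2 nearest protein-coding genes on each side, and from the 3 genes most correlated with the gene of the largest statistic. The members and lists were chosen with earlier results of these data known. List counts and medians are descriptions without a set test. Some genes under these rules are not reported here by name.

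Alternatives were the quasi-likelihood test, DESeq2 1.42.0, DESeq2 size factors, total counts, no filter, a filter at 1 CPM (4 libraries), a stricter FDR of 0.01, the replicate block and each library left out. The floor of 3 counts covers counting error only.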

Additional observations from a re-analysis of the deposited data

Results flagged for a closer look

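In 2 of 14 groups of 4 libraries examined (7 genes in 2 groups), the lowest library stood far below the others by the gap to its nearest neighbour relative to the range. For Mest this was TGFβ1 library 4 with 1.67 CPM, against 2.26 to 2.34 CPM in the other TGFβ1 libraries. For Grb10 it was untreated library 4 with 513 CPM, against 538 to 542 CPM. Chance flags about 1 in 20 groups. Both stayed clear of the other group, and library 4 was the lowest of its group for Grb10, Mest and Peg3 in untreated and TGFβ1 libraries alike.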

How the results depend on the processing

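All 104 alternative values for the 7 tested genes kept their direction and their side of the threshold. Over these alternatives the log2 fold change was -2.72 to -2.51 for Dlk1, -2.45 to -2.26 for Mest, -1.35 to -1.10 for H19, -1.21 to -1.13 for Grb10, -1.35 to -0.78 for Peg3 (FDR up to 0.00686), 0.85 to 1.04 for Plagl1 (FDR up to 0.00659) and 0.22 to 0.35 for Ndn (FDR up to 0.00972). The count of genes called higher went from 2 to 1 with the filter of 1 CPM, which removed Plagl1. Among the other imprinted genes listed with the same loci, 2 were called higher. The count was 1 under the quasi-likelihood test, DESeq2, total counts, the filter of 1 CPM and an FDR of 0.01, and 1 to 2 when each library was left out. Where the count was 1, the gene lost was Mkrn3, which the filter of 1 CPM removed before testing. Mkrn3 lost its call in 10 alternatives, Zrsr1 in 9 and Peg12 in 2. Total counts moved the median of all genes by -0.07 on the log2 scale. With the replicate block 5 of the 7 genes were lower and 2 higher, and imprinted genes of other loci called higher went from 11 to 10, with Zrsr1 losing its call. Same-numbered libraries had correlations of deviations between -0.193 and -0.0336, so the numbers were not taken as a pairing. Depth limits Meg3, Rian, Mirg and Igf2, and 4 libraries a group from the same line limit the errors to technical spread.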
